A study of Homo sapiens with 12 samples.

Results

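The 38 genes described here encode the enzymes of glycolysis, the carriers of glucose and lactate, the hypoxia-inducible transcription factors and a set of genes known to respond to low oxygen. They were chosen by symbol, each matching 1 of the 60623 gene rows of the deposited count matrix, and 36 of them had enough reads to be tested among 17096 tested genes. The libraries came from NUGC-4, an established line of diffuse gastric cancer that the labels give as wild type. Cells were treated for 24 h with IN10018 and crizotinib together (1 µM each, the combination), with 1 µM crizotinib, with 1 µM IN10018, or kept as control, and each of these 4 groups had 3 libraries. Focal adhesion kinase (FAK) is the target of IN10018, while crizotinib inhibits the receptor kinases MET, ALK and ROS1. No label describes low oxygen or a change of glucose, and separate cultures are not mentioned for the libraries of a group, so p-values here speak only to the spread between these libraries, which may be technical.

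Glycolysis splits glucose into pyruvate in the cytosol, and lactate dehydrogenase then reduces pyruvate to lactate, which leaves the cell through monocarboxylate transporters. Hypoxia-inducible factors (HIF) bind DNA as an alpha subunit (HIF1A, or EPAS1, also called HIF-2 alpha) with a stable partner. In the presence of oxygen, prolyl hydroxylases of the EGLN family mark the alpha subunits for destruction through the VHL ubiquitin ligase, so that HIF activity is set mainly at the protein level. Many glycolytic genes carry HIF-binding elements, and growth factor signalling through MYC, PI3K and mTOR also acts on the same genes.

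Total reads ran from 13691844 to 20489708 per library. Levels below are in CPM, counts scaled to a common library size with TMM factors, and changes are log2 fold changes with an approximate SE from a quasi-likelihood fit of all 12 libraries with edgeR. A gene is said to rise, fall or be called at a Benjamini-Hochberg adjusted p under 0.05. Levels of different genes are compared only as RPKM, which is CPM per kilobase of exon. These are bulk libraries, in which fewer cells of a kind and less RNA per cell cannot be told apart. Library 2 of the crizotinib group stood apart from the other crizotinib libraries. Its score on the first principal component was 57.8, against -4.61 and 10.3 in crizotinib libraries 1 and 3, and the 3 combination libraries scored 56.3, 91.4 and 37.8. Mitochondrially encoded genes took 6.99, 4.28 and 6.62% of reads with the combination, 13.3, 5.21 and 9.46% with crizotinib, 12.3, 12.7 and 11.5% with IN10018 and 11.2, 11.0 and 11.9% in control. Of 8 epithelial markers, KRT8, KRT18 and KRT7 led, with summed levels of 2667 to 4043 CPM with the combination, 2007 to 3549 with crizotinib, 1865 to 2047 with IN10018 and 2186 to 2322 in control, while KRT19 had 0 reads and CDH17 had 1 read in all. The description label mentions adipogenic differentiation, and of 7 adipocyte markers ADIPOQ and LPL had 0 reads, while the whole list summed to 127 to 150.2 CPM with the combination, 104 to 139.7 with crizotinib, 99.8 to 107.7 with IN10018 and 106 to 117 in control. Its expressed members moved both ways with the combination: FABP4 (112 CPM with the combination, 71.3 in control) and PLIN1 (3.09 and 1.21) were called higher and PPARG (20.3 and 39.2) lower. COL3A1 made up nearly all of the 5 fibroblast markers (5443, 6044, 5546 and 6046 CPM with the combination, with crizotinib, with IN10018 and in control), with 12 reads of COL1A2 and 2 of THY1 over all libraries. The 4 leukocyte markers summed to at most 0.77 CPM in any library. The part of these shifts in the gene results was not tested.

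With both drugs, the 38 genes did not move as a block. Relative to control, 16 of the 36 tested genes fell, 9 rose and 11 did not pass the test. Over all 17096 tested genes, 29.1% were called lower and 33.7% higher in the same comparison. The median log2 change was -0.17 over the 36 genes and 0.10 over all tested genes. Both HIF alpha subunits, the HIF hydroxylase EGLN1, the glucose carrier SLC2A1 and the enzymes HK2, PFKP and PGAM1 were among the genes that fell. VEGFA, CA12, ENO2, GPI and TPI1 were among those that rose. Without library 2 of both the crizotinib and combination groups, 15 fell and 9 rose, beside 28.6% lower and 32.5% higher over all genes. With library totals in place of TMM 14 fell and 14 rose, beside 22.0% and 41.5%. With DESeq2 17 fell and 4 rose, beside 15.0% and 14.1% of 35677 genes without the filter. Without combination library 2, 15 fell and 5 rose, beside 25.1% and 26.9%. The same counts without control library 3 stood beside 27.4% and 25.4%. GC content moved with the calls: over all tested genes its median was 55.6% in genes called higher and 42.7% in genes called lower with the combination, and over the members it was 55.0% and 51.8%. An offset for GC content and gene length was added after the data were seen. It gave 14 lower and 9 higher members, beside 23.7% and 32.2% of all genes. These were not all the same genes. SLC16A3, ALDOC, TPI1 and PFKFB4 were no longer called higher, and PGK1, LDHA, PDK1 and P4HA1 no longer lower. Members called only with the offset are not named here. Genes whose sign turned are named with their values below.

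**Figure D1:**
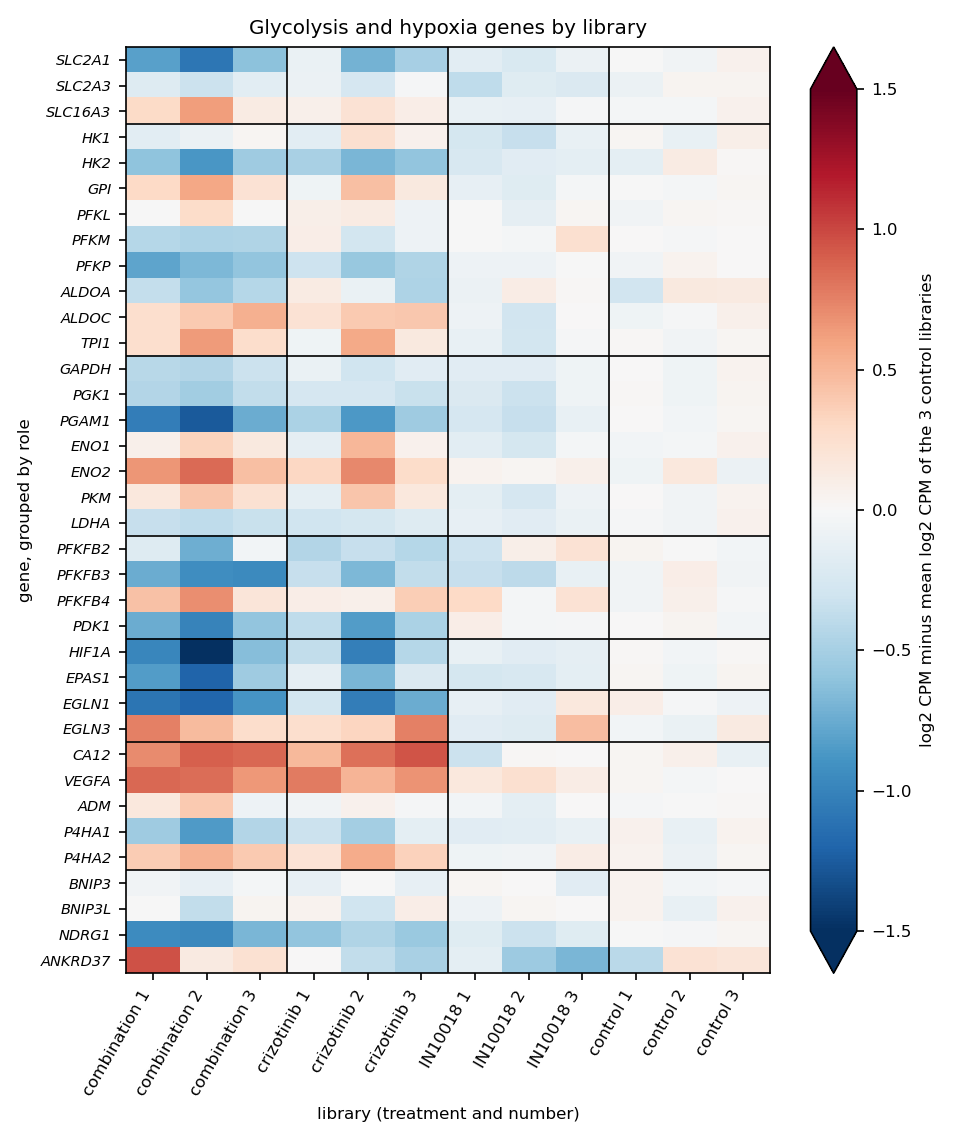
Log2 CPM of the 36 tested genes in each of the 12 libraries, minus the mean log2 CPM of the 3 control libraries, with genes grouped by role from top to bottom (transport, upper steps, lower steps, control of flux, HIF alpha subunits, hydroxylases, pH and secreted or matrix genes, mitophagy and stress). Blue cells for SLC2A1, PGAM1, HIF1A and EGLN1 stand beside red cells for CA12 and VEGFA in the combination columns, crizotinib library 2 looks like a combination library, and the IN10018 columns are pale.

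The gene HIF1A (ENSG00000100644, chromosome 14, 61695513 to 61748259, GRCh38) had 629, 437 and 800.4 CPM with the combination, 961, 611 and 922 CPM with crizotinib, 1149, 1107 and 1138 CPM with IN10018 and 1261, 1212 and 1262 CPM in control. All combination and crizotinib libraries lay below all control libraries, and crizotinib library 2 lay below combination libraries 1 and 3. HIF1A fell with the combination (log2 change -1.0 ± 0.19, adjusted p = 0.000589) and with crizotinib (log2 change -0.58 ± 0.19, adjusted p = 0.0289). The crizotinib call was lost without crizotinib library 2 (-0.40) and without any 1 control library, and the GC and length offset left -0.32 for the combination, which remained called, and -0.16 for crizotinib, which did not.

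EPAS1 (ENSG00000116016, chromosome 2, 46293667 to 46386703), the other alpha subunit, had 652, 508 and 806 CPM with the combination, 1064, 724 and 999.98 CPM with crizotinib, 973, 989 and 1055 CPM with IN10018 and 1193, 1112 and 1195 CPM in control. Combination library 3 reached above crizotinib library 2, and no combination library reached a control library. EPAS1 fell with the combination (log2 change -0.83 ± 0.16, adjusted p = 0.000625), and with crizotinib it was -0.33 ± 0.16, which did not pass the test (adjusted p = 0.114). Per length, HIF1A was the more abundant of the pair in every group, at 121 ± 35.3 RPKM against 89.8 ± 20.4 for EPAS1 with the combination and 242 ± 5.47 against 159.8 ± 6.46 in control (SD, n = 3).

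Of the prolyl hydroxylases that inactivate these subunits, EGLN1 (PHD2, the main oxygen sensor; ENSG00000135766, chromosome 1, 231363751 to 231425044) had a decrease that lay within its SE of those of HIF1A and PGAM1. It had 4.82, 4.52 and 5.57 CPM with the combination, 8.47, 5.02 and 6.11 CPM with crizotinib, 9.46, 9.09 and 11.4 CPM with IN10018 and 11.0, 10.1 and 9.74 CPM in control. Combination and crizotinib libraries were all below control, with crizotinib library 1 the highest of the 6. EGLN1 fell with the combination (log2 change -1.04 ± 0.19, adjusted p = 0.000361) and with crizotinib (log2 change -0.65 ± 0.18, adjusted p = 0.0147), and the crizotinib call was lost without crizotinib library 2 (-0.49), without crizotinib library 3 or without control library 1. The GC and length offset left -0.58 for the combination (called) and -0.37 for crizotinib (not called). EGLN3 (PHD3), a hydroxylase gene that HIF itself induces, had 6.25, 5.14 and 4.41 CPM with the combination against 3.59, 3.45 and 4.04 CPM in control, and its change of 0.51 ± 0.22 did not pass the test (adjusted p = 0.0547).

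**Figure D2:**
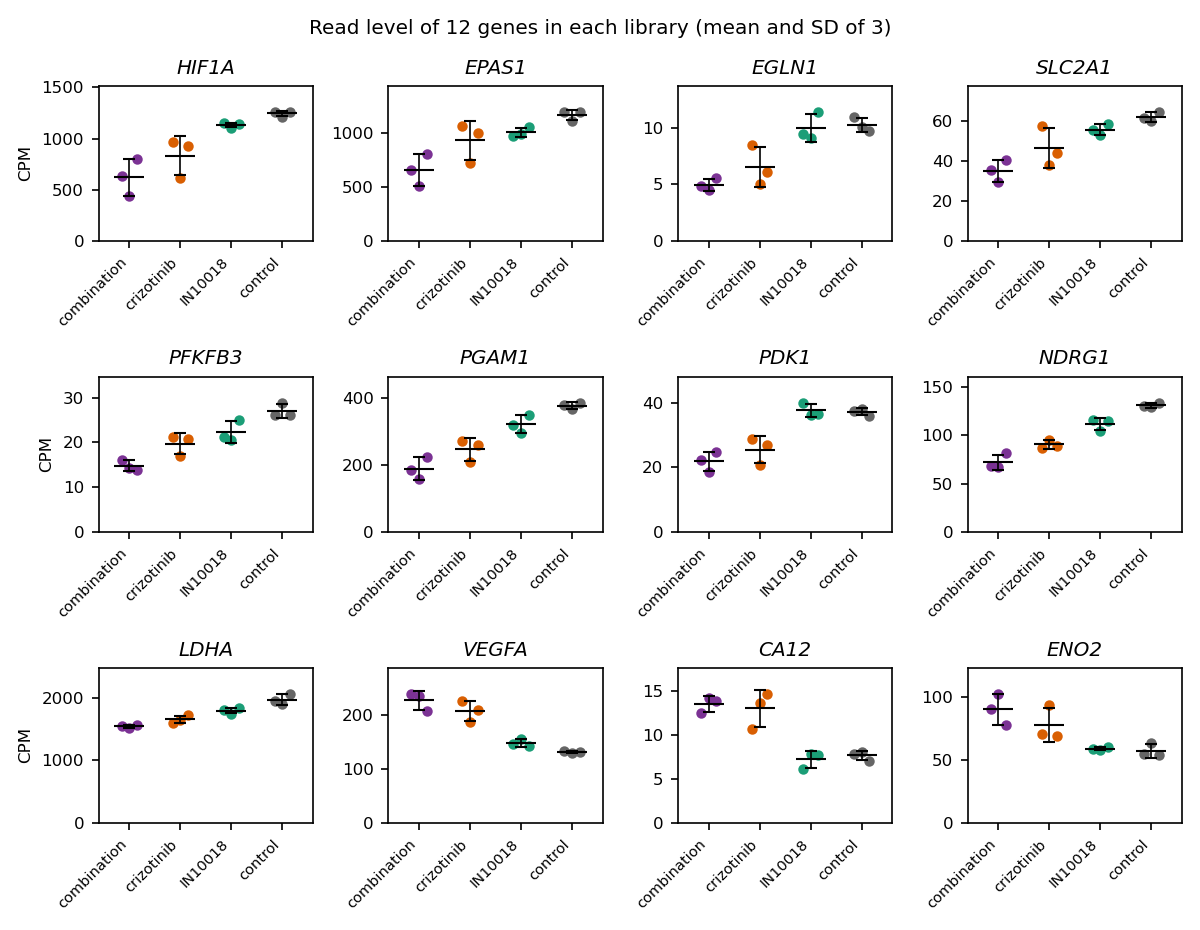
CPM of 12 genes in each library (points), with the mean and SD of the 3 libraries of a group (line and bar), and an axis that starts at 0 in every panel. HIF1A, EPAS1, EGLN1, SLC2A1, PFKFB3, PGAM1, PDK1 and NDRG1 are lowest with the combination and next lowest with crizotinib on average, as is LDHA within a narrow range, and VEGFA, CA12 and ENO2 are higher with the combination and crizotinib.

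HIF binds a short core, ACGTG or GCGTG, in hypoxia response elements. The 250 bases before the RefSeq start were read for the 33 members with an entry in RefSeq's GRCh38.p14 table, which SLC2A3, PFKFB2, VEGFA, NDRG1 and BNIP3L lack. Searched on both strands, 21 of the 33 windows (63.6%) held at least 1 of the 2 cores, against 43.2% of all 35116 RefSeq windows of that length. For ACGTG alone the shares were 39.4% of members and 18.5% of all windows, and for GCGTG 36.4% and 32.2%. The members were chosen in part as genes known to respond to low oxygen. All windows were used without matching for expression or GC content, so these shares describe the list only. Matches of the 2 cores may share letters, and CACGTG matches ACGTG on both strands and counts as 2. Among members called lower with the combination 10 of 15 windows held a core, among those called higher 5 of 8, and among those not called 5 of 8. ACGTG was in 7 of the 15, 3 of the 8 and 2 of the 8 windows of these classes and GCGTG in 5, 3 and 4, and no difference between classes was tested. LDHB and CA9, which were not tested for change, are among the 33 windows but in none of these classes. 6 windows are printed below because they span these cases: EGLN1, LDHA and PGK1 fell and hold a core, PGAM1 fell and holds none, ENO2 rose and holds 1, and BNIP3 has the most matches of the 33 and was not called. The strand printed is that of the gene, 5′ to 3′, ending at the base before the RefSeq start, and capitals mark the matched cores. Their positions are chr1:231422288-231422537 (minus strand) for EGLN1, chr11:18394313-18394562 (plus strand) for LDHA, chrX:78103998-78104247 (plus strand) for PGK1, chr10:97427568-97427817 (plus strand) for PGAM1, chr12:6914330-6914579 (plus strand) for ENO2 and chr10:131981924-131982173 (minus strand) for BNIP3. The RefSeq starts of all 6 genes lie inside the gene bounds that GENCODE gives, downstream of its first base. For EGLN1, PGK1, PGAM1 and ENO2 the whole window lies inside these bounds, and the PGAM1 gene begins at 97426160. Only 1 RefSeq entry per gene was read, so a window without a core does not cover the sequence before the first annotated base. A match is a string of letters and not a measured binding site.
EGLN1: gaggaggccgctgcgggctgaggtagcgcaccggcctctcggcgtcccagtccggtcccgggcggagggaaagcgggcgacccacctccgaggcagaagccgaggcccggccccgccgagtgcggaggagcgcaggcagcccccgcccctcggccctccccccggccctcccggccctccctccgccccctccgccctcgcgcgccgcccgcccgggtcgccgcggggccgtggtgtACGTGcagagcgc
LDHA: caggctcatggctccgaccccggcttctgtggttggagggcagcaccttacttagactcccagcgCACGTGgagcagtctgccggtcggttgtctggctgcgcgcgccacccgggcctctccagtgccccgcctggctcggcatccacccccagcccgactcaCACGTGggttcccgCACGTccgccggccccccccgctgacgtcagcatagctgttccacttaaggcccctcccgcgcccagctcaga
PGK1: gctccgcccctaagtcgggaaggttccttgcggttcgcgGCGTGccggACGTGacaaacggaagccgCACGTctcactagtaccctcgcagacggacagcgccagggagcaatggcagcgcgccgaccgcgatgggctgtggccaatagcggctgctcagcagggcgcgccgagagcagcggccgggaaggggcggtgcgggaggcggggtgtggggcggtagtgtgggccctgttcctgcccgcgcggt
PGAM1: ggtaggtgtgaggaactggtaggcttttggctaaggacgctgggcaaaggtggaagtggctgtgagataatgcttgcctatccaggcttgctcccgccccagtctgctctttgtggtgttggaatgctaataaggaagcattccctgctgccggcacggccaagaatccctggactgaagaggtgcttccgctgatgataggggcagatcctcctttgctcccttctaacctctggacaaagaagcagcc
ENO2: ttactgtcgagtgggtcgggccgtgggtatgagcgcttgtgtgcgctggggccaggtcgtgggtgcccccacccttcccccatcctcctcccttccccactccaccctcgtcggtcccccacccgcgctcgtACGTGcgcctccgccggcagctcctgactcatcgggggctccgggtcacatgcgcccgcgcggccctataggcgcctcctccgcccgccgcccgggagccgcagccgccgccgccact
BNIP3: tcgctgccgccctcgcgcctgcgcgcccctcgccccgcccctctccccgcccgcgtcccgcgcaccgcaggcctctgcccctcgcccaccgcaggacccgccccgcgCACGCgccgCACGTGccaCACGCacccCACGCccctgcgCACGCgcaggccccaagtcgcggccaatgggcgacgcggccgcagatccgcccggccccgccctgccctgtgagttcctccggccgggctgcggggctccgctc

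Of the carriers, SLC2A1 fell and SLC16A3 rose with the combination. SLC2A1 (GLUT1, the carrier of basal glucose uptake; ENSG00000117394, chromosome 1, 42925375 to 42959176) had 35.2, 29.1 and 40.3 CPM with the combination, 57.5, 37.8 and 43.9 CPM with crizotinib, 55.4, 52.9 and 58.4 CPM with IN10018 and 61.6, 59.7 and 64.5 CPM in control. No combination library reached a control or IN10018 library, whereas crizotinib library 1 lay within the range of IN10018. SLC2A1 fell with the combination (log2 change -0.83 ± 0.15, adjusted p = 0.000404) and with crizotinib (log2 change -0.42 ± 0.15, adjusted p = 0.0399), a call that was lost without crizotinib library 2 (-0.29) and in 11 other alternatives. SLC2A3 (GLUT3), a high-affinity carrier, had 26.1, 23.9 and 26.8 CPM with the combination against 28.3, 30.8 and 30.9 CPM in control, with a change of -0.23 ± 0.11 that did not pass the test (adjusted p = 0.0761). SLC16A3 (MCT4), which exports lactate, had 282, 358 and 252 CPM with the combination against 227, 226 and 241 CPM in control. It rose with the combination (log2 change 0.36 ± 0.12, adjusted p = 0.0147), with combination library 2 highest, and the call was lost in 6 alternatives, among them without that library (0.19), without control library 2 or 3, with DESeq2 and under the GC and length offset, where the value was -0.09.

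In the upper steps, from glucose to triose phosphates, 4 of 9 enzymes fell with the combination and 3 rose, beside 29.1% lower and 33.7% higher over all genes. HK2, the inducible hexokinase of tumours, had 7.91, 6.53 and 8.27 CPM with the combination, 8.53, 7.42 and 7.96 CPM with crizotinib, 10.1, 10.6 and 10.8 CPM with IN10018 and 10.9, 13.1 and 12.1 CPM in control, and HK1, the ubiquitous hexokinase, had 369.9, 389 and 423 CPM with the combination against 421, 383 and 438 CPM in control. All combination and crizotinib libraries of HK2 lay below all IN10018 and control libraries, while those of HK1 overlapped with control. HK2 fell with the combination (log2 change -0.67 ± 0.13, adjusted p = 0.000779) and with crizotinib (log2 change -0.59 ± 0.13, adjusted p = 0.00638). HK1 was the dominant hexokinase transcript throughout, at 62.6 ± 4.27 RPKM with the combination and 65.8 ± 4.48 in control, against 1.25 ± 0.151 and 1.98 ± 0.184 RPKM for HK2.

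Phosphofructokinase, the committed step, is built from 3 subunit genes. PFKP (the platelet-type subunit) had 42.2, 45.6 and 48.6 CPM with the combination, 59.0, 49.4 and 53.6 CPM with crizotinib, 69.4, 69.3 and 72.8 CPM with IN10018 and 70.1, 75.8 and 73.2 CPM in control. PFKM (the muscle-type subunit) had 32.6, 31.8 and 32.0 CPM with the combination, 46.9, 36.2 and 41.5 CPM with crizotinib, 43.5, 42.8 and 51.9 CPM with IN10018 and 43.9, 43.4 and 44.1 CPM in control. PFKL (the liver-type subunit) had 144, 175 and 144 CPM with the combination against 139.6, 148 and 147 CPM in control. Groups did not overlap between the combination and control for PFKP and PFKM and did overlap for PFKL. PFKP fell with the combination (log2 change -0.68 ± 0.10, adjusted p = 0.00012) and with crizotinib (log2 change -0.44 ± 0.10, adjusted p = 0.00676). PFKM fell with the combination (log2 change -0.45 ± 0.11, adjusted p = 0.0038, and -0.27 with library totals, still called) and gave -0.08 ± 0.11 with crizotinib (adjusted p = 0.598), and PFKL gave 0.09 ± 0.10 with the combination (adjusted p = 0.464).

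GPI, which converts glucose 6-phosphate to fructose 6-phosphate, had 598, 724 and 563 CPM with the combination against 483, 476 and 495 CPM in control and rose (log2 change 0.37 ± 0.13, adjusted p = 0.0211). The call on GPI was lost with DESeq2, without any 1 control library and without combination library 2 (the lowest value was 0.24). TPI1, which interconverts the triose phosphates, had 413, 540.5 and 417 CPM with the combination, 333, 513 and 385 CPM with crizotinib, 320.4, 287 and 341 CPM with IN10018 and 351, 336 and 354 CPM in control. It rose with the combination (log2 change 0.40 ± 0.15, adjusted p = 0.0316), but combination library 2 and crizotinib library 2 stood above their groups, the call was lost without combination library 2 or any 1 control library and with DESeq2 or its size factors, and the GC and length offset turned the value to -0.10. ALDOC, the brain-type aldolase, had 18.9, 20.9 and 23.0 CPM with the combination, 18.5, 20.9 and 21.0 CPM with crizotinib, 15.1, 13.0 and 15.9 CPM with IN10018 and 15.2, 15.7 and 16.8 CPM in control. ALDOC rose with the combination (log2 change 0.39 ± 0.12, adjusted p = 0.0111) and with crizotinib (log2 change 0.34 ± 0.12, adjusted p = 0.0397), and under the GC and length offset these values were -0.02 and 0.07 and neither was called. With DESeq2 neither call held. The crizotinib call of ALDOC was also lost without crizotinib library 2 (0.31), without crizotinib library 3 and without any 1 control library.

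ALDOA, normally the main aldolase outside liver and brain, had only 945 reads over the 12 libraries, or 0.968 ± 0.0743 RPKM with the combination and 1.34 ± 0.215 in control, against 5.43 ± 0.273 RPKM for ALDOC in control. The annotated gene AC093512.2 lies on the same strand and shares 42.3% of the exon bases of ALDOA, and it had 324 reads. How the authors' counting assigned reads in shared bases is not given in the sources used here, so the level of ALDOA is uncertain. It fell with the combination (log2 change -0.47 ± 0.18, adjusted p = 0.0379), a call that was lost in 9 alternatives, among them leaving out any 1 combination library, control library 2 or 3, or IN10018 library 3.

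**Figure D3:**
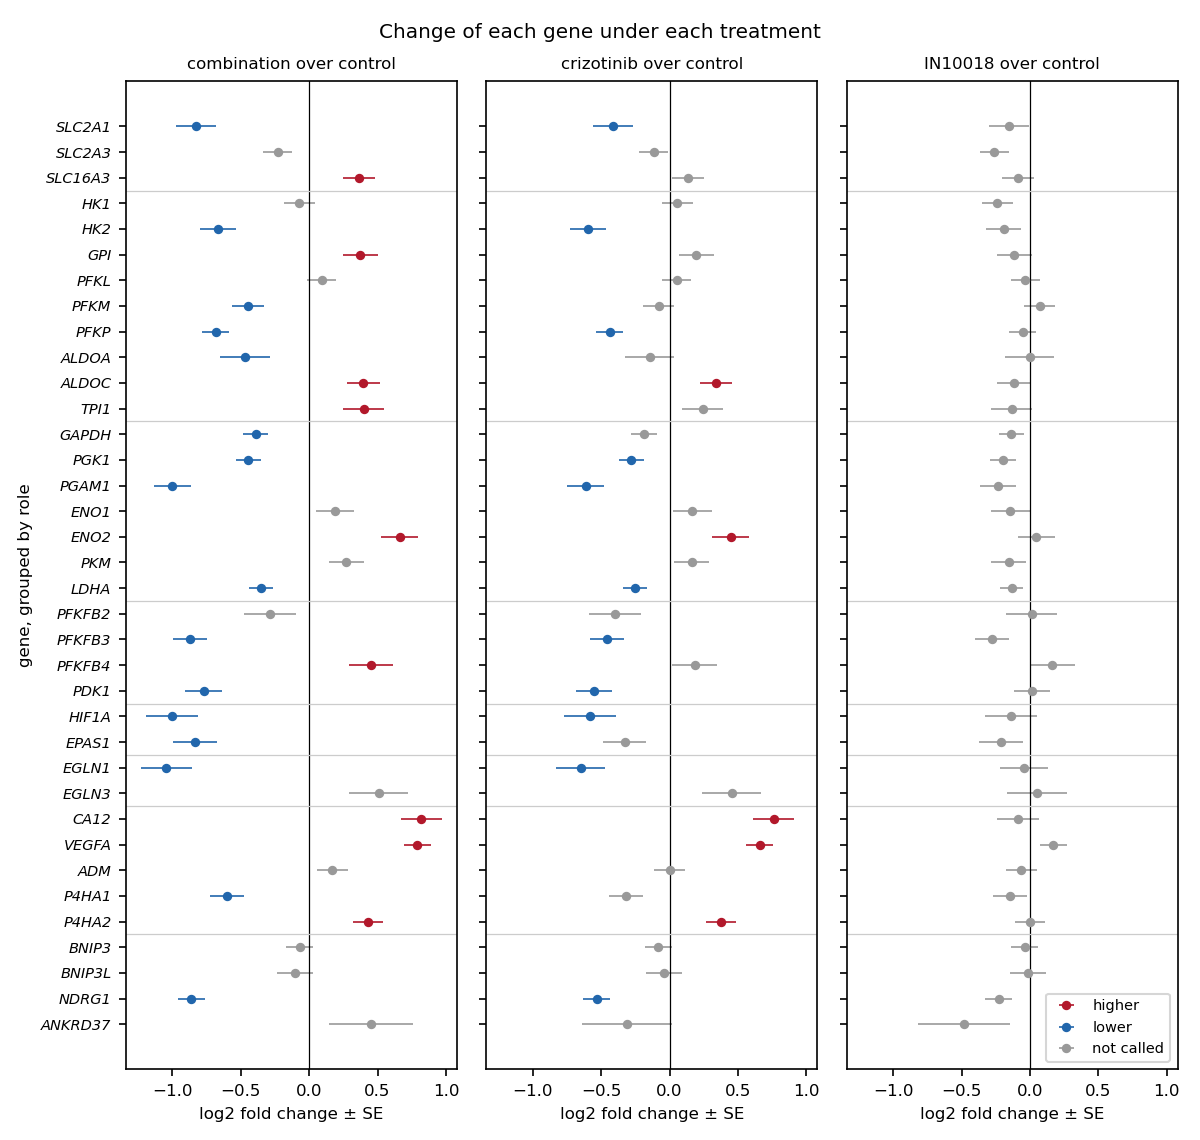
Log2 fold change of each tested gene over control (points, bars of 1 SE either way) for the combination, crizotinib and IN10018, all 3 against the same control libraries, with genes in the order of the heat map. Red and blue mark genes with an adjusted p under 0.05, and the combination panel spans -1.04 (EGLN1) to 0.82 (CA12).

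In the lower steps, from glyceraldehyde 3-phosphate to lactate, 4 of 7 tested enzymes fell and 1 rose, beside the same background. PGAM1, the phosphoglycerate mutase outside muscle (ENSG00000171314, chromosome 10, 97426160 to 97433441), had 184, 157 and 225 CPM with the combination, 272, 207 and 261 CPM with crizotinib, 318, 296 and 349 CPM with IN10018 and 380.4, 366 and 386 CPM in control. Levels were lowest with the combination, followed by crizotinib, IN10018 and control without overlap, except that crizotinib library 2 lay among the combination libraries. PGAM1 fell with the combination (log2 change -1.0 ± 0.14, adjusted p = 8.98e-05) and with crizotinib (log2 change -0.61 ± 0.13, adjusted p = 0.00598), and 13 pseudogene rows of PGAM1 held 3.97% of the reads of gene and pseudogenes together, so that some of its reads may be split.

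GAPDH, the dehydrogenase often used as a constant reference, had 1778, 1748 and 1893 CPM with the combination, 2209, 1930.2 and 2102 CPM with crizotinib, 2108, 2096 and 2258 CPM with IN10018 and 2384, 2259 and 2463 CPM in control. No combination library of GAPDH reached a control or IN10018 library. GAPDH fell with the combination (log2 change -0.39 ± 0.09, adjusted p = 0.0024), and the value ranged from -0.21 with library totals to -0.90 with the GC and length offset, both called. With crizotinib it was -0.19 ± 0.09 (adjusted p = 0.12).

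PGK1, which makes the first ATP of the pathway, and LDHA, the lactate-forming dehydrogenase subunit, showed small decreases that turned sign with the GC and length offset. PGK1 had 436, 414 and 459 CPM with the combination, 498, 498 and 471 CPM with crizotinib, 512, 476 and 566 CPM with IN10018 and 602, 567 and 611 CPM in control. LDHA had 1557, 1518 and 1563 CPM with the combination, 1605, 1650.1 and 1724 CPM with crizotinib, 1808, 1752 and 1841 CPM with IN10018 and 1954, 1902 and 2071 CPM in control. In neither gene did a combination library reach a control library. PGK1 fell with the combination (log2 change -0.45 ± 0.09, adjusted p = 0.00106) and with crizotinib (log2 change -0.28 ± 0.09, adjusted p = 0.0315), against 0.02 and 0.01 under the offset. LDHA fell with the combination (log2 change -0.35 ± 0.09, adjusted p = 0.00275) and with crizotinib (log2 change -0.25 ± 0.09, adjusted p = 0.0338), against 0.11 and 0.03 under the offset, and it was no longer called with the combination under library totals (-0.18). With library totals PGK1 was -0.27, still called. The crizotinib call was lost without crizotinib library 2 for PGK1 (-0.29) and LDHA (-0.25), and also without crizotinib library 3 or control library 1 or 3 for PGK1 and without any 1 crizotinib or control library for LDHA. Their longest transcripts held 43.3% GC (PGK1) and 44.0% GC (LDHA).

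The enolases differed. ENO2, the neuronal enolase that is also a HIF target, had 90.4, 103 and 78.2 CPM with the combination, 70.9, 93.9 and 69.0 CPM with crizotinib, 58.9, 58.0 and 60.2 CPM with IN10018 and 54.6, 63.4 and 53.6 CPM in control. Every combination library lay above every IN10018 and control library, and crizotinib library 2 lay among the combination libraries. ENO2 rose with the combination (log2 change 0.66 ± 0.14, adjusted p = 0.000904) and with crizotinib (log2 change 0.45 ± 0.13, adjusted p = 0.0212), and the crizotinib call was lost without crizotinib library 2 (0.29) and without control library 1 or 3. ENO1, the main enolase and the most abundant member per length after GAPDH in both the combination and control groups, had 2672, 3182 and 2785 CPM with the combination, 2298, 3570.2 and 2630.3 CPM with crizotinib, 2268, 2109 and 2477 CPM with IN10018 and 2464, 2481 and 2635 CPM in control. Its combination libraries all lay above control, but the change of 0.19 ± 0.14 did not pass the test (adjusted p = 0.258). PKM, pyruvate kinase of most tissues, had 1643, 1953 and 1721 CPM with the combination against 1479, 1409 and 1516 CPM in control and likewise did not pass (0.27 ± 0.13, adjusted p = 0.0804).

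LDHB, the heart-type lactate dehydrogenase subunit, had 0 reads in all 12 libraries, which allows at most 0.0152 CPM over the 12 libraries (3 counts, counting error only). The annotated gene AC010197.2 shares 33.4% of its exon bases on the same strand and also had 0 reads. Its other exon bases overlap no exon of another gene in GENCODE, and why LDHB is at 0 was not tested.

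Among the genes that set the rate of glycolysis, PFKFB3 and PDK1 fell. PFKFB3 makes fructose 2,6-bisphosphate, the activator of phosphofructokinase, with high kinase activity. It had 16.1, 14.2 and 13.9 CPM with the combination, 21.2, 17.0 and 20.8 CPM with crizotinib, 21.2, 20.5 and 25.0 CPM with IN10018 and 26.0, 28.9 and 26.0 CPM in control. All 3 combination libraries were below all others, and the crizotinib libraries were below control. PFKFB3 fell with the combination (log2 change -0.87 ± 0.13, adjusted p = 0.000121) and with crizotinib (log2 change -0.46 ± 0.12, adjusted p = 0.0138). PFKFB4, a paralog with the same dual function, had 8.63, 10.4 and 7.22 CPM with the combination against 6.14, 6.72 and 6.28 CPM in control and rose (log2 change 0.45 ± 0.16, adjusted p = 0.0252), a call that was lost in 9 alternatives, among them leaving out combination library 1 or 2 or control library 1 or 3. PFKFB2, the form first known from heart, had 4.64, 3.20 and 5.14 CPM with the combination against 5.46, 5.26 and 5.16 CPM in control and gave -0.28 ± 0.19 (adjusted p = 0.203).

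PDK1, a pyruvate dehydrogenase kinase that keeps pyruvate out of the mitochondrial citric acid cycle, had 22.1, 18.6 and 24.6 CPM with the combination, 28.6, 20.7 and 26.7 CPM with crizotinib, 39.9, 36.3 and 36.6 CPM with IN10018 and 37.4, 38.1 and 36.0 CPM in control. Both groups with crizotinib lay below both groups without it in every library. PDK1 fell with the combination (log2 change -0.77 ± 0.13, adjusted p = 0.000323) and with crizotinib (log2 change -0.55 ± 0.13, adjusted p = 0.00849), and under the GC and length offset the values were -0.04 and -0.08 and not called. The longest transcript of PDK1 held 39.8% GC.

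Genes known as HIF targets outside glycolysis split by gene. VEGFA (vascular endothelial growth factor A; ENSG00000112715, chromosome 6, 43770184 to 43786487) had 239, 235 and 206 CPM with the combination, 225, 187 and 209 CPM with crizotinib, 146, 155 and 142 CPM with IN10018 and 133, 129 and 131 CPM in control. The groups with crizotinib lay above the groups without it in every library, and every IN10018 library lay above every control library. VEGFA rose with the combination (log2 change 0.79 ± 0.10, adjusted p = 6.91e-05) and with crizotinib (log2 change 0.66 ± 0.10, adjusted p = 0.00134), values that were 0.78 and 0.67 under the GC and length offset. CA12, a membrane carbonic anhydrase that helps to regulate pH around tumour cells, had 12.5, 14.2 and 13.9 CPM with the combination, 10.7, 13.6 and 14.7 CPM with crizotinib, 6.12, 7.78 and 7.72 CPM with IN10018 and 7.86, 8.11 and 7.08 CPM in control. Again both groups with crizotinib stood above both others without overlap, and CA12 rose with the combination (log2 change 0.82 ± 0.15, adjusted p = 0.000439) and with crizotinib (log2 change 0.76 ± 0.15, adjusted p = 0.00412). CA9, its strongly hypoxia-induced relative, had 0 reads in all 12 libraries (at most 0.0152 CPM), and ARHGEF39 on the opposite strand, with 1878 reads, overlaps 38.5% of its exon bases. ADM, the vasodilator peptide adrenomedullin and a common marker of hypoxia, had 63.8, 74.9 and 54.4 CPM with the combination against 56.7, 57.2 and 57.8 CPM in control and gave 0.17 ± 0.11 (adjusted p = 0.205).

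The collagen prolyl 4-hydroxylase subunits moved apart. P4HA1 had 61.0, 48.9 and 65.2 CPM with the combination, 70.9, 62.0 and 80.1 CPM with crizotinib, 78.6, 79.1 and 82.1 CPM with IN10018 and 92.3, 81.9 and 91.3 CPM in control, and P4HA2 had 62.8, 69.4 and 63.7 CPM with the combination, 55.8, 71.2 and 61.7 CPM with crizotinib, 46.2, 46.6 and 52.1 CPM with IN10018 and 50.1, 45.7 and 49.5 CPM in control. Combination libraries were below control for P4HA1 and above control for P4HA2, in every library. P4HA1 fell with the combination (log2 change -0.60 ± 0.12, adjusted p = 0.000947), which was -0.17 and not called under the GC and length offset. P4HA2 rose with the combination (log2 change 0.43 ± 0.11, adjusted p = 0.00358, and 0.68 with that offset) and with crizotinib (log2 change 0.38 ± 0.11, adjusted p = 0.0177), where the call was lost without crizotinib library 2 (0.28) and without control library 2 or 3.

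NDRG1, a stress-responsive gene induced by hypoxia and differentiation, had 68.1, 67.3 and 81.2 CPM with the combination, 87.3, 95.6 and 89.2 CPM with crizotinib, 116, 105 and 115 CPM with IN10018 and 130.4, 129 and 134 CPM in control. The groups followed each other without overlap in the order combination, crizotinib, IN10018 and control. NDRG1 fell with the combination (log2 change -0.86 ± 0.10, adjusted p = 5.13e-05) and with crizotinib (log2 change -0.53 ± 0.10, adjusted p = 0.00334). The mitophagy receptors BNIP3 and BNIP3L, both HIF targets, gave -0.07 ± 0.10 and -0.10 ± 0.13 with the combination (adjusted p = 0.561 and 0.505), with 26.8, 25.4 and 27.2 CPM with the combination against 28.7, 27.0 and 27.5 CPM in control for BNIP3. Rows of BNIP3 pseudogenes held 11.9% of the reads of gene and pseudogenes together. ANKRD37, a small HIF target with 175 reads in all, had 1.73, 0.973 and 1.04 CPM with the combination, 0.889, 0.685 and 0.636 CPM with crizotinib, 0.804, 0.606 and 0.551 CPM with IN10018 and 0.673, 1.03 and 1.01 CPM in control. Combination library 1 was the highest of the 12 for ANKRD37, the change against control was 0.45 ± 0.31 (adjusted p = 0.215), and UFSP2 overlaps 35.2% of its exon bases on the opposite strand.

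With crizotinib alone, 11 of the 36 tested genes fell and 5 rose, while 17.6% of all tested genes were called lower and 20.0% higher. The genes that fell were SLC2A1, HK2, PFKP, PGK1, PGAM1, LDHA, PFKFB3, PDK1, HIF1A, EGLN1 and NDRG1, and those that rose were ALDOC, ENO2, CA12, VEGFA and P4HA2. The median log2 change was -0.10 over the members and 0.08 over all tested genes. Without crizotinib library 2 these counts were 6 lower and 2 higher (HK2, PFKP, PGAM1, PFKFB3, PDK1 and NDRG1 lower, and CA12 and VEGFA higher), with 10.7% of all tested genes lower and 10.1% higher. Without crizotinib library 1 they were 10 lower and 8 higher, beside 20.0% and 25.4% of all genes. Without control library 1 they were 6 and 3, beside 7.74% and 9.97%. Without control library 2 they were 8 and 3, beside 13.0% and 14.8%. Without control library 3 they were 7 and 2, beside 13.2% and 7.68%. The combination and crizotinib share their control libraries, so their changes over control are not independent.

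**Figure D4:**
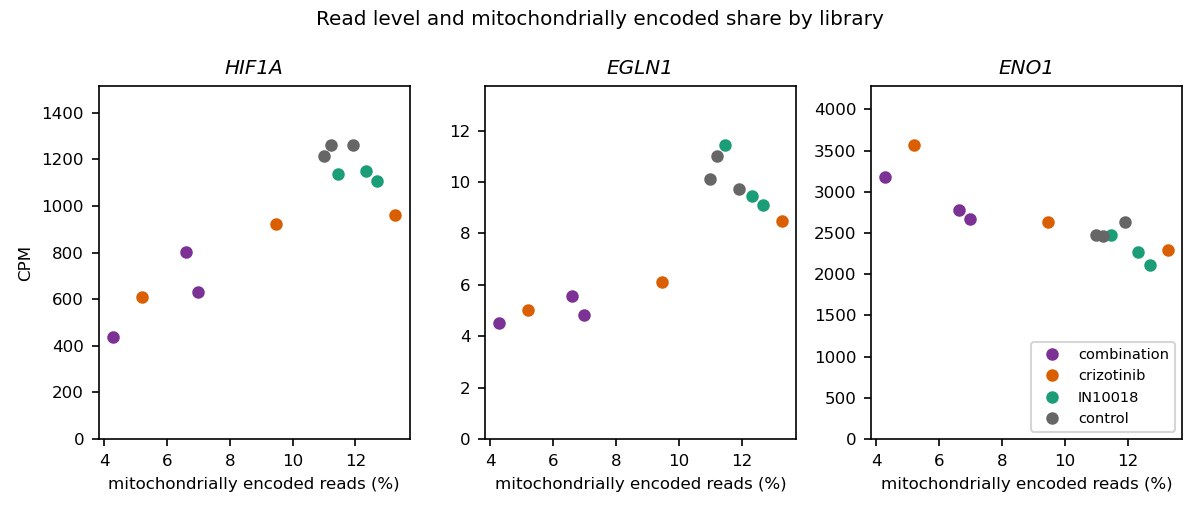
CPM of HIF1A, EGLN1 and ENO1 in each of the 12 libraries against the percentage of reads that fell in mitochondrially encoded genes, coloured by treatment, with vertical axes from 0. Crizotinib library 2, at 5.21%, sits beside the combination libraries (4.28 to 6.99%) for HIF1A (611 CPM) and EGLN1 (5.02 CPM) and is the highest of all for ENO1 (3570.2 CPM).

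IN10018 alone called none of the 36 genes with edgeR (0 higher and 0 lower), where 0.345% of all tested genes were called higher and 0.158% lower. At an unadjusted p under 0.05 there were 3 members (8.33%) and 11.0% of all genes, and DESeq2 and limma-voom also called 0. Changes ran from -0.48 ± 0.34 (ANKRD37) to 0.17 ± 0.10 (VEGFA), and 29 of the 36 were below 0, with a median of -0.12 over the members and -0.02 over all genes. A fit of the 6 IN10018 and control libraries alone, which takes its spread from these libraries only, called VEGFA higher (0.21) and SLC2A3 (-0.23), PGK1 (-0.16), NDRG1 (-0.20), EPAS1 (-0.18), HK1 (-0.21), PFKFB3 (-0.25) and PGAM1 (-0.20) lower, in a background of 8.34% higher and 5.58% lower. For HIF1A the change over control was -0.14 ± 0.19 and for LDHA -0.13 ± 0.09, with adjusted p of 0.828 and 0.615 in the 12-library fit.

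Against IN10018, the combination had 16 of the 36 genes lower and 10 higher, in a background of 27.5% lower and 29.7% higher. PKM (pyruvate kinase) rose (log2 change 0.43 ± 0.13, adjusted p = 0.0118) as did ANKRD37 (log2 change 0.93 ± 0.32, adjusted p = 0.0237), neither of which was called against control. The call on PKM was lost without IN10018 library 2 or combination library 2, and that on ANKRD37 without IN10018 library 2 or 3 or combination library 1, with DESeq2 and with no filter. EGLN1 fell (log2 change -1.0 ± 0.19, adjusted p = 0.000727, and -0.59 with the GC and length offset) and CA12 rose (log2 change 0.91 ± 0.15, adjusted p = 0.000475). HIF1A fell (log2 change -0.86 ± 0.19, adjusted p = 0.00194), which was -0.22 and not called under that offset.

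Against crizotinib, the combination had 0 of the 36 genes called with edgeR, and over all genes 0% were called higher and 0.0117% lower. DESeq2 and limma-voom also called 0 members, while 11 members (30.6%) and 21.6% of all genes had an unadjusted p under 0.05. This result rests on crizotinib library 2. Without it, 3 members were higher (GPI, TPI1 and ENO2) and 11 lower, with 15.0% of all genes called higher and 17.3% lower. The lower ones were EPAS1 (-0.66), HIF1A (-0.60), EGLN1 (-0.56), SLC2A1 (-0.54), PFKFB3 (-0.51), PGAM1 (-0.50), PFKM (-0.46), P4HA1, PDK1, PFKP and NDRG1. With the replicate number as a block, same-numbered libraries were treated as pairs. The members then stayed at 0 in each direction, while 0.526% of all genes were called higher and 0.0234% lower. In the fit of all 12 libraries without a block the changes ran from -0.50 ± 0.16 (EPAS1) to 0.76 ± 0.32 (ANKRD37).

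The interaction of the drugs asks whether the combined change differs from the sum of the single log2 changes. It was called for 0 members by edgeR, DESeq2 and limma-voom, with 0.0585% of all genes called higher and 0.0117% lower. At an unadjusted p under 0.05 there were 2 members (5.56%) and 8.0% of all genes. PFKM had an interaction of -0.44 ± 0.16 (adjusted p = 0.53), and without crizotinib library 2 it was the 1 member called, at -0.53 (adjusted p = 0.0491), in a background of 2.25% of all genes called higher and 2.37% lower. For HIF1A the value was -0.28 ± 0.27 and for VEGFA -0.04 ± 0.14.

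Shares of 1 gene within a pair or trio of related genes do not depend on library scaling. GC content can differ within a pair, as with 36.4% for HIF1A and 52.6% for EPAS1. No share was computed with the GC and length offset, so the part of GC content in the shares was not tested. EGLN1 made up 43.9, 47.1 and 56.1% of EGLN1 plus EGLN3 per length in the combination libraries, 66.2, 52.4 and 49.8% with crizotinib, 74.5, 74.0 and 69.4% with IN10018 and 75.6, 74.8 and 70.9% in control. Combination and crizotinib libraries all lay below control, and crizotinib library 1 was the nearest to it. PFKFB3 took 56.5 ± 2.60% of the 3 PFKFB genes with the combination, 66.9 ± 2.62% with crizotinib, 68.1 ± 1.15% with IN10018 and 73.8 ± 0.594% in control (SD, n = 3), while PFKFB4 took 33.5 ± 5.00%, 24.8 ± 2.04%, 22.1 ± 2.44% and 17.5 ± 0.241% in these 4 groups. Each treated group was separated from control without overlap in both shares. PFKL made up 55.5 ± 2.99% of the 3 phosphofructokinase genes per length with the combination and 43.5 ± 0.274% in control, and PFKP 30.3 ± 2.35% and 40.5 ± 0.512%. SLC2A1 made up 63.8 ± 2.46% of SLC2A1 plus SLC2A3 per length with the combination and 72.9 ± 1.17% in control, P4HA1 70.8 ± 4.27% and 83.4 ± 0.230% of both hydroxylase subunits, and HIF1A 57.0 ± 1.88% and 60.2 ± 0.434% of both alpha subunits. The libraries of these groups did not overlap in any of these shares. In a two-sided exact permutation test 3 libraries against 3 cannot go below p = 0.1, which all of them reached, and over the 65 tests of 13 shares the adjusted p was 0.181. The shares of HK1, PFKM and ENO1 also did not overlap between the combination and control. BNIP3 kept overlapping shares, 39.0 ± 2.86% of BNIP3 plus BNIP3L with the combination and 38.2 ± 1.30% in control. So did PFKFB2, at 10.0 ± 2.75% of the 3 PFKFB genes with the combination and 8.71 ± 0.546% in control.

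**Figure D5:**
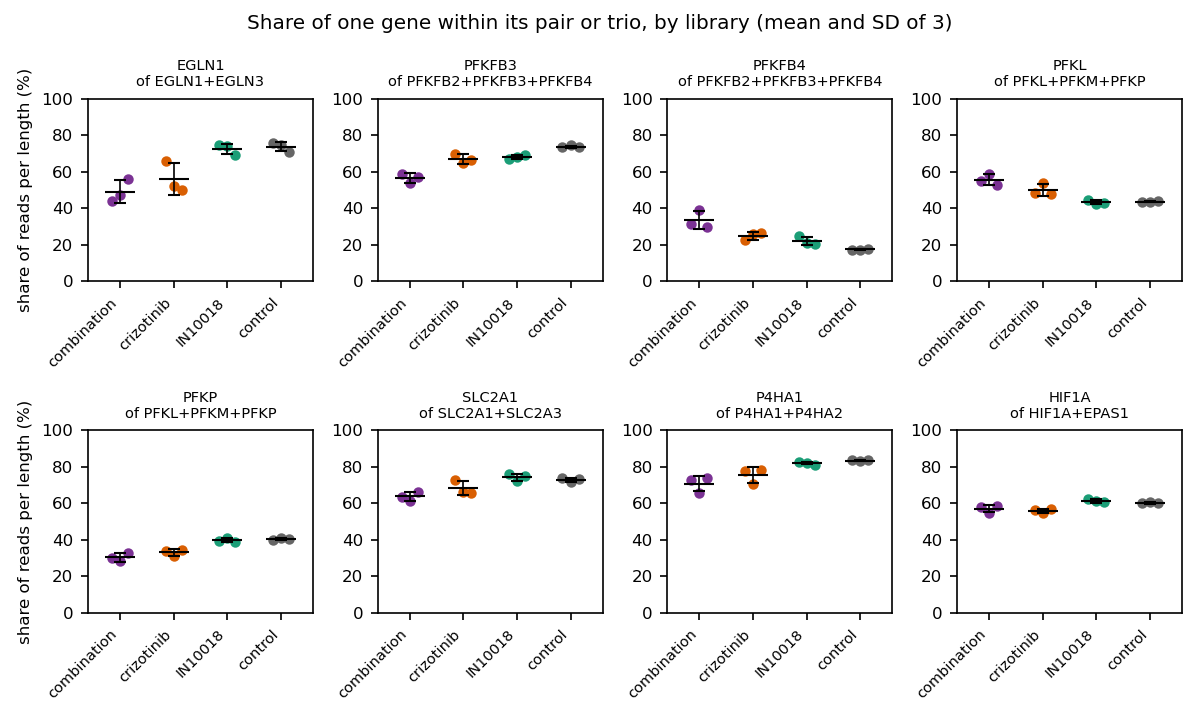
Share (percent of reads per kilobase) of 1 gene within its pair or trio in each library (points), with the mean and SD of 3 libraries, on axes from 0 to 100. EGLN1 shows the widest step, with means of 49.0% with the combination and 73.8% in control, while HIF1A moves little, with means of 57.0% and 60.2%.

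Outside the 38 members, 109 genes of the surrounding pathways were listed and 88 tested. With the combination 38 of these fell and 28 rose, in the background of 29.1% lower and 33.7% higher given above. With crizotinib 22 fell and 23 rose (background 17.6% and 20.0%), and with IN10018 2 fell and 0 rose (0.158% and 0.345%). In the entry of pyruvate into mitochondria, 9 of 13 genes fell and 2 rose with the combination. DLAT, the E2 subunit of pyruvate dehydrogenase, averaged 39.8 ± 10.6 CPM with the combination and 104 ± 3.31 in control and fell (log2 change -1.38 ± 0.22, adjusted p = 0.000214). PDK4, another pyruvate dehydrogenase kinase, fell (log2 change -1.02 ± 0.14, adjusted p = 8.98e-05), while PC, pyruvate carboxylase, rose (log2 change 0.80 ± 0.14, adjusted p = 0.000369). In the pentose phosphate pathway, the branch that yields NADPH and ribose, 5 of 7 genes rose and 1 fell. PGLS, its lactonase, averaged 67.6 ± 27.2 CPM with the combination and 17.1 ± 1.15 in control and rose (log2 change 1.98 ± 0.31, adjusted p = 0.000169), the transketolase TKT rose (log2 change 0.72 ± 0.12, adjusted p = 0.000309), and TALDO1, transaldolase, rose (log2 change 0.71 ± 0.18, adjusted p = 0.00319). Under the GC and length offset, DLAT was -0.96, PDK4 -0.43, PC 0.35, PGLS 1.27 and TALDO1 0.30, all called.

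Of 12 tested regulators of HIF, 6 fell and 4 rose with the combination, beside 29.1% lower and 33.7% higher over all tested genes. CITED2, which competes with HIF for the coactivators CBP and p300, averaged 13.9 ± 2.03 CPM with the combination, 17.0 ± 2.07 with crizotinib, 31.3 ± 2.35 with IN10018 and 59.6 ± 0.917 in control. It fell with the combination (log2 change -2.10 ± 0.13, adjusted p = 4.39e-07), with crizotinib (log2 change -1.81 ± 0.13, adjusted p = 2.51e-06) and with IN10018 (log2 change -0.93 ± 0.12, adjusted p = 0.00476), the last not called without IN10018 library 2. EGLN2 (PHD1) averaged 27.6 ± 6.75 CPM with the combination and 8.89 ± 1.76 in control and rose (log2 change 1.63 ± 0.19, adjusted p = 5.49e-05). CUL2, the scaffold of the VHL ligase, fell (log2 change -1.37 ± 0.24, adjusted p = 0.00031, and -0.78 with the GC and length offset), and ELOB, the elongin B subunit, rose (log2 change 1.16 ± 0.26, adjusted p = 0.00164) but was 0.14 and not called under that offset.

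Of 27 further tested HIF targets, 12 fell and 7 rose with the combination, beside 29.1% lower and 33.7% higher over all tested genes. DDIT4 (REDD1), an inhibitor of mTOR that hypoxia and energy stress induce, averaged 31.3 ± 4.25 CPM with the combination, 25.7 ± 0.641 with crizotinib, 14.5 ± 0.571 with IN10018 and 11.9 ± 0.632 in control. It rose with the combination (log2 change 1.40 ± 0.12, adjusted p = 8.86e-06, and 0.75 with the GC and length offset) and with crizotinib (log2 change 1.11 ± 0.12, adjusted p = 0.000151, and 0.71 with that offset), and with IN10018 it gave 0.29 ± 0.12 (adjusted p = 0.387). LOX and ANGPTL4, a collagen cross-linking oxidase and a lipase inhibitor, had low levels of 0.226 ± 0.184 and 1.01 ± 0.454 CPM with the combination and 0.966 ± 0.318 and 0.242 ± 0.0705 CPM in control. LOX fell (log2 change -2.03 ± 0.53, adjusted p = 0.00423) and ANGPTL4 rose (log2 change 1.99 ± 0.59, adjusted p = 0.00951), the call on ANGPTL4 being lost under the GC and length offset (1.18).

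Among 7 glucose-sensing factors with MYC, 3 fell and 3 rose with the combination. Over all tested genes 29.1% were called lower and 33.7% higher, which is the background for each list of this paragraph. MYC, a driver of glycolytic gene transcription, averaged 52.5 ± 7.04 CPM with the combination, 72.1 ± 24.6 with crizotinib, 96.9 ± 4.31 with IN10018 and 103 ± 3.89 in control, and fell with the combination (log2 change -0.98 ± 0.18, adjusted p = 0.00053) and with crizotinib (log2 change -0.52 ± 0.18, adjusted p = 0.0374). The crizotinib call on MYC was lost in 11 alternatives, among them without crizotinib library 2 (-0.33) or 3 and without any 1 control library, and with IN10018 the change was -0.09 ± 0.18 (adjusted p = 0.88). MLXIPL (ChREBP), a glucose-responsive transcription factor, averaged 2.92 ± 0.730 CPM with the combination and 0.546 ± 0.154 in control and rose (log2 change 2.42 ± 0.29, adjusted p = 6.14e-05). TXNIP, a glucose-induced gene that restrains glucose uptake, averaged 49.9 ± 5.23 CPM with the combination, 53.2 ± 3.66 with crizotinib, 42.4 ± 2.74 with IN10018 and 40.1 ± 4.06 in control. It rose with the combination (log2 change 0.31 ± 0.11, adjusted p = 0.0269, and 0.64 with the GC and length offset), a call lost in 8 alternatives, among them leaving out any 1 control library, and with crizotinib (log2 change 0.41 ± 0.11, adjusted p = 0.0155), a call lost without control library 2, while IN10018 gave 0.08 ± 0.11 (adjusted p = 0.841). ARRDC4, its paralog with the same inducer, fell (log2 change -0.95 ± 0.17, adjusted p = 0.000386, and -0.57 with the GC and length offset). Of the 6 tested other carriers, 3 fell and 3 rose, with SLC16A7 (MCT2) lower (log2 change -1.76 ± 0.28, adjusted p = 0.000214, and -0.94 with the offset). Of 11 genes of gluconeogenesis and glycogen, 4 fell and 3 rose. Of 5 tested glycolytic isoenzymes outside the members, the muscle enolase ENO3 rose (log2 change 1.37 ± 0.22, adjusted p = 0.0002).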

How the data were processed

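Gene counts for the 12 NUGC-4 libraries were used as the authors deposited them, as whole numbers in 1 matrix. Per the labels' protocols RNA was taken with TRIzol and libraries were made with the directional NEBNext Ultra kit. Per the submitters' processing notes, Trimmomatic, FastQC, HISAT2, featureCounts and DESeq2 were used with hg38 (GRCh38). Versions, annotation release and strand setting are not given in the sources used here.

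Genes kept by filterByExpr of edgeR (version 4.0.16, with limma 3.58.1 in R 4.3.3) were fitted over all 12 libraries with the quasi-likelihood test after TMM scaling, with 8 residual degrees of freedom. Each adjusted p is Benjamini-Hochberg over all 17096 tested genes, and calls are made under 0.05. The SE is the size of the log2 change divided by the square root of F. GC content, lengths and overlaps come from GENCODE release 29, which held 96.52% of the gene IDs, and upstream sequences from RefSeq on GRCh38.p14. GC content is that of the longest transcript of a gene. Isoenzyme shares were tested by exact permutation with scipy 1.17.1. The pipeline was tested on counts simulated from the fit's own means and spread. That simulation held fewer changed genes than the data and no outlying or correlated libraries, and its outcome is not given here. Intervals and floors cover counting error only, and depth ran from 13691844 to 20489708 reads.

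Members and gene lists were chosen with earlier results of these data known. The text names the tested members, with values by library for those called at an absolute log2 change of at least 0.5. Of each other pathway list it names up to 4 called genes from those with the largest changes against control, plus DDIT4, TXNIP and MYC; some of the genes that rule picks are not reported here. Alternatives were DESeq2 (version 1.42.0) and its size factors, limma-voom, library totals, mitochondrial genes removed, other filters, the 6 libraries of a comparison alone, a replicate block, leaving out libraries and, added after the data were seen, an offset for GC content and length. Reads of replicates differed beyond sampling noise (chi-square per degree of freedom from 2.27 upwards), so none was counted as a duplicate. Same-numbered combination and crizotinib libraries deviated together, with correlations of 0.218, 0.624 and 0.275 across genes, all over 0.1. By that rule these numbers were taken as pairs. Combination library 3 and crizotinib library 1 had 0.422, above the same-numbered libraries 1 and 3. The rule therefore did not establish that libraries 1 and 3 are pairs, and only library 2 stood out. In the other group pairs not all 3 passed 0.1.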

Additional observations from a re-analysis of the deposited data

How the results depend on the processing

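Over the 67 pairs of member and comparison that were called, 1541 alternative values were computed, of which 10 reversed in direction and 144 lost the call, while limma-voom and the replicate block kept all 67 calls. The 10 reversals came with the GC and length offset, at 0.0073 (PGK1) and 0.0253 (LDHA) for crizotinib against control, -0.0866 (SLC16A3), -0.0208 (ALDOC), -0.0986 (TPI1), 0.0234 (PGK1) and 0.105 (LDHA) for the combination against control, and -0.0732 (SLC16A3), 0.167 (PGK1) and 0.183 (LDHA) for the combination against IN10018. For the other pathway lists, alternatives were computed only for 60 of the pairs called against control. These were up to 4 called genes with the largest changes per list and comparison, plus DDIT4, TXNIP and MYC where called. They gave 1374 alternative values, 125 lost calls and 2 reversals. Both reversals came with that offset, at 0.356 (UGP2, combination against control) and 0.0022 (RPE, crizotinib against control). In the fit of the 6 compared libraries alone, IN10018 against control had 1 member higher and 7 lower, beside 8.34% and 5.58% of all genes. Crizotinib against control there had 2 higher, beside 14.6%. With library totals 7 members were lower with crizotinib (11.4% of all genes) and 14 higher with the combination (41.5%), each against control. With DESeq2 4 were higher with the combination, beside 14.1% of 35677 genes without the filter. For the combination against crizotinib 3 members were lower with no filter, beside 2.72% of 35679 genes. Without library 2 of both groups 1 was higher and 8 were lower, beside 10.9% and 14.4%. The interaction there had 1 lower, beside 5.71%. Leaving out 1 library at a time, crizotinib against control ranged from 2 to 8 members higher and from 6 to 12 lower. Over all genes these ranges were 7.68 to 25.4% and 7.74 to 20.0%. The combination against control ranged from 5 to 11 higher, beside 25.4 to 35.1%. The combination against crizotinib ranged from 0 to 3 higher and from 0 to 11 lower, beside 0 to 15.0% and 0.0113 to 17.3%. The interaction ranged from 0 to 1 lower, beside 0.00564 to 2.37%. Without division by length, the share of P4HA1 differed by -17.57 points between the combination and control, against -12.575 with it. The cause of these shifts was not tested.

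With library totals the median of all genes moved to 0.27 with the combination and 0.21 with crizotinib, against 0.10 and 0.08 with TMM, and 41.5% of genes were then called higher and 22.0% lower with the combination, 28.2% and 11.4% with crizotinib, and 34.7% and 22.6% for the combination against IN10018. With the GC and length offset, 32.2% were higher and 23.7% lower with the combination, and 19.8% and 13.1% with crizotinib. With the replicate block 5 members were higher and 13 lower with crizotinib, beside 22.7% and 20.6% of all genes. With the combination they were 10 and 16, beside 34.6% and 29.8%. For the combination against IN10018 they were 11 and 16, beside 31.2% and 28.7%. For the combination against crizotinib they were 0 and 0, where the calls over all genes went to 90 higher and 4 lower. The block was fitted over all 12 libraries, although the replicate numbers met the pairing rule for the combination and crizotinib only. That pairing is not established, since combination library 3 also correlated with crizotinib library 1 (0.422). Depth limits ANKRD37 and ALDOA, with 175 and 945 reads in all, and LDHB and CA9, with 0.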
